A study of Mus musculus with 18 samples.

Results

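Glul, Axin2, Lgr5, Tbx3, Oat, Rhbg, Lect2, Rnf43, Znrf3 and Slc1a2 are genes that hepatocytes next to the central vein of the liver lobule express under the control of Wnt signalling. These 10 genes were chosen by name, as known Wnt targets of pericentral hepatocytes, out of 19594 genes that could be tested on the arrays. All 10 were on the array, with 13 probes in all, and each of the 13 probes lay well above background on all 18 arrays, so that no gene of the group was lost to the filter on dim probes.

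The liver lobule is divided into zones. Endothelial cells of the central vein secrete Wnt ligands and the R-spondins that strengthen them, and hepatocytes close to the vein respond through beta-catenin, which enters the nucleus and acts with TCF/LEF factors on its target genes. Among these targets are brakes on the pathway itself, such as Axin2, Rnf43 and Znrf3, and the enzymes and transporters with which pericentral cells take up glutamate and ammonia that escaped the urea cycle and bind them in glutamine. Hepatocytes around the portal vein carry the urea cycle and gluconeogenesis instead.

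Liver RNA came from 18 male C57BL/6 mice, 1 one-colour Agilent array per mouse. From 6 weeks of age the mice ate a low fat diet with 10% fat (LFD) or a high fat diet with 60% fat (HFD). After 10 weeks part of each cohort received methotrexate (MTX), a folate antagonist used in chemotherapy, as 5 intraperitoneal injections of 50 mg/kg, and livers were taken 1 week after the last. The groups are LFD (n = 4, untreated), LFD MTX50 (n = 5), HFD (n = 4, untreated) and HFD MTX50 (n = 5), all without tumors. The study asked how the drug changes the liver of obese mice, and the comparisons made here are HFD vs LFD, LFD MTX50 vs LFD, HFD MTX50 vs HFD, and the difference between both treatment effects.

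Levels are log2 intensities relative to the 75th percentile of the array, which ran from 1203 to 2263 intensity units. Because probes bind with different strength, a level is compared between mice on 1 probe and never between genes. A gene was read on its brightest probe and called when the Benjamini-Hochberg adjusted p of limma over all probes was below 0.05. All 6 hepatocyte markers lay far above the array's 75th percentile in sum, at 9.65 to 10.37 in every mouse, as liver tissue has it. In bulk liver, fewer pericentral cells and less RNA per cell cannot be told apart, and the zone in which a transcript was made is not measured.

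The 18 arrays lie on 6 slides. All LFD arrays share slide 1, LFD MTX50 lies on slides 2 and 3, HFD mice 1 and 2 on slide 4, and HFD MTX50 mice 3 to 5 on slide 6. Slide 5 holds HFD mice 3 and 4 together with HFD MTX50 mice 1 and 2. For every comparison against LFD, slide and group cannot therefore be told apart, while HFD MTX50 and HFD can also be compared within slide 5. Under the scaling used, the median gene was 0.08 higher in HFD than in LFD and 0.10 higher in LFD MTX50 than in LFD, and 0.04 lower in HFD MTX50 than in HFD (log2). With quantile normalization these medians were 0.01, −0.00 and −0.02, and the share of called genes that were higher went from 63.4%, 62.7% and 44.0% to 47.4%, 45.3% and 44.5%. The shift depended on signal level. The 4134 genes with a mean level below −4 had a median difference of 0.42 in both comparisons with LFD and −0.17 in HFD MTX50 vs HFD.

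The set of RefSeq promoters used here holds sequence for 6 of the 10 genes, Glul, Axin2, Oat, Lect2, Rnf43 and Slc1a2. It has no entry for Lgr5, Tbx3, Rhbg and Znrf3. In the 250 bases before each transcription start the letters CTTTGA were searched on both strands. CTTTGA is a form of the core that TCF/LEF factors bind, and other forms were not searched. These letters were found for Lect2 and Slc1a2 and not in the windows of Glul, Axin2, Oat and both starts of Rnf43. Of all 32851 RefSeq promoters searched the same way, 13.8% hold them, so a match is only a description of the letters. Shown are both genes with a match and, for comparison, the first start of Rnf43, the gene of the group that differed by diet. The sequences are from GRCm38.p6, 5′ to 3′ on the strand of the gene and ending at the base before the start, with the searched letters or their reverse complement TCAAAG in capitals.

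Lect2 promoter, chr13:56548539-56548788, minus strand: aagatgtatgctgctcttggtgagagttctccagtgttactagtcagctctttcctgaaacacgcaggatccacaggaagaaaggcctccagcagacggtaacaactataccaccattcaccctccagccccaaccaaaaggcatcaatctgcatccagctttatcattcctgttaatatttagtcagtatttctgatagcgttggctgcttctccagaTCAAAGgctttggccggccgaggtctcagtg

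Slc1a2 promoter, chr2:102706188-102706437, plus strand: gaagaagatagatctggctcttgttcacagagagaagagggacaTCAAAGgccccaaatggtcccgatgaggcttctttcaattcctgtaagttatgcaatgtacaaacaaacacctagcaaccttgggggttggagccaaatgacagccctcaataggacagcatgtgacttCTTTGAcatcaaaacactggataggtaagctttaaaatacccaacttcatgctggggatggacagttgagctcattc

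Rnf43 promoter, chr11:87662837-87663086, plus strand: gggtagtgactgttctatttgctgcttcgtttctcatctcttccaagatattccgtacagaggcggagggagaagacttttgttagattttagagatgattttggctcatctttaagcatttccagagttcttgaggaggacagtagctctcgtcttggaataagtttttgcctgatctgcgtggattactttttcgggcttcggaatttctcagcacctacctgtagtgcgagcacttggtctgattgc

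The match of Lect2 begins at −31 from the start, and the nearer match of Slc1a2 at −77. The windows of Slc1a2, of Axin2 and of the second start of Rnf43 lie inside the gene, since the annotated gene begins further upstream. The Lect2 window overlaps the 5′ end of the annotated gene, so −31 counts from the transcript start used.

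**Figure D1:**
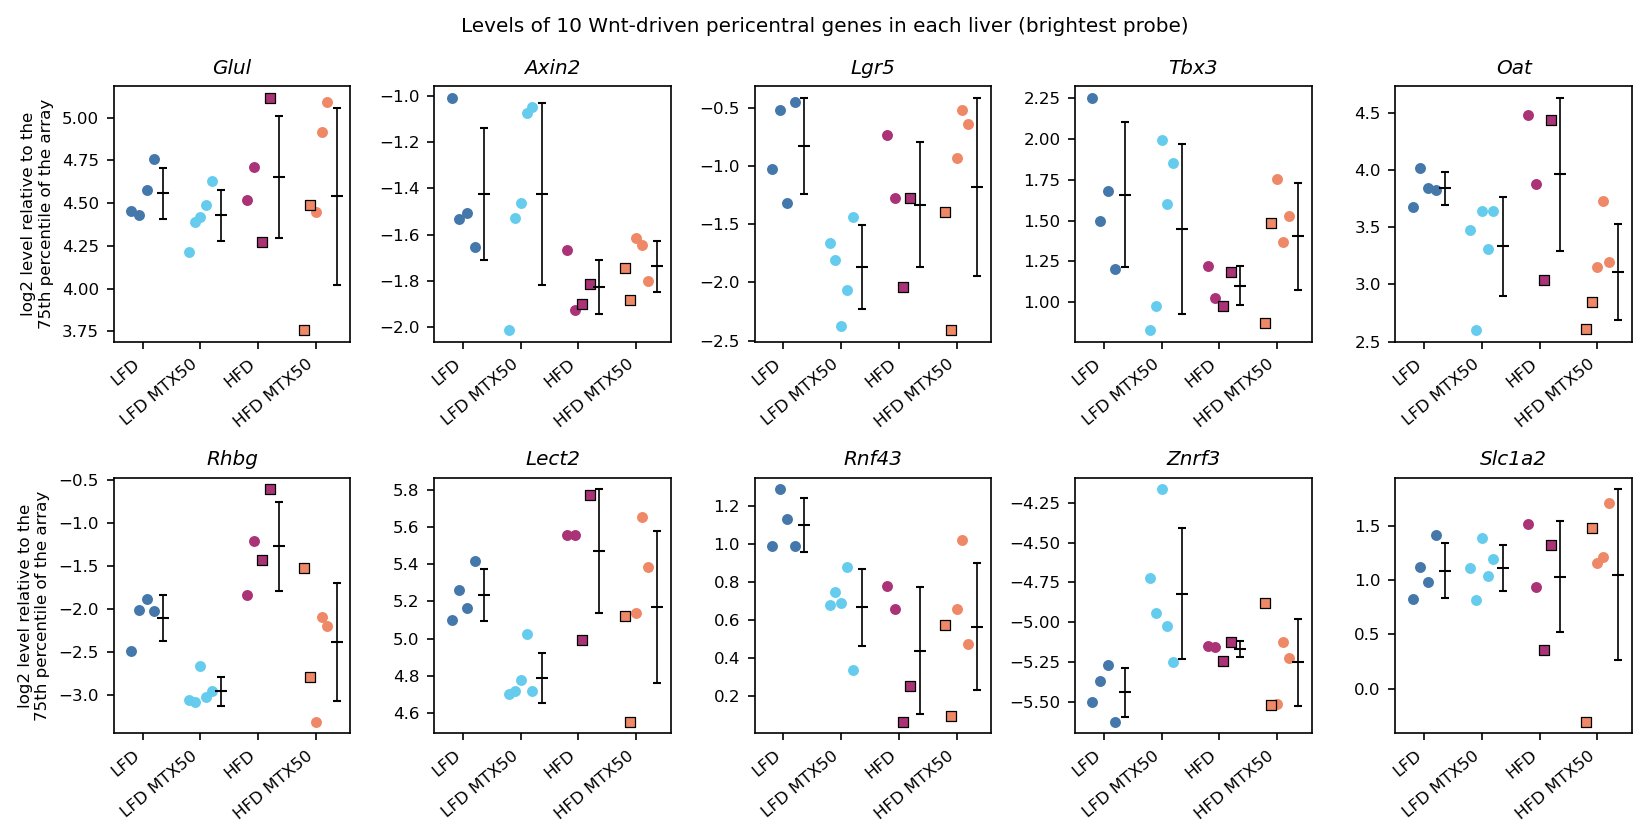
Log2 level of each gene relative to the 75th percentile of its array (vertical axis) in every mouse of the 4 groups, read on the brightest probe. Points are mice, squares are the arrays of the slide shared by HFD and HFD MTX50, and bars give mean ± SD. The 5 LFD MTX50 mice lie below all LFD mice for Rhbg, Lgr5, Oat, Lect2 and Rnf43, and above them for Znrf3. The 4 HFD mice lie below all LFD mice for Rnf43 and Axin2, and above them for Rhbg and Znrf3. How often groups fail to overlap over all genes was not counted.

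In HFD vs LFD, 1 of the 10 genes was called, lower in HFD, and 0 higher, where 10.4% of all genes were called lower and 18% higher. The gene was Rnf43, a membrane ubiquitin ligase that clears Frizzled receptors from the cell surface. The median difference of the 10 genes was 0.02, against 0.08 over all genes. The diet comparison thus left most of the group without a call.

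Rnf43 read 0.99, 1.29, 1.13 and 0.99 in the 4 LFD mice, and 0.78, 0.66, 0.07 and 0.25 in the 4 HFD mice. The groups did not overlap, and the lowest HFD values were those of mice 3 and 4, on slide 5. The difference was −0.66 ± 0.19 (SE), or 1.58-fold lower, with an adjusted p of 0.0171 in limma and an exact two-sided permutation p of 0.029, the smallest that 4 against 4 mice allow. The call was lost in a fit with slides as random blocks (−0.63, adjusted p 0.096; range over 16 other settings 0.0135 to 0.166) and without LFD mouse 2, HFD mouse 3 or HFD mouse 4 (adjusted p 0.0522, 0.0697 and 0.0582).

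Under methotrexate Rnf43 read 0.68, 0.75, 0.69, 0.88 and 0.34 in LFD MTX50, below every LFD mouse, but its difference of −0.43 ± 0.18 did not pass (adjusted p 0.0705, exact permutation p 0.016). Over 16 other settings this adjusted p ran from 0.0255 to 0.189, passing for instance with scaling to the median of probes above background (−0.53, adjusted p 0.0497), and it passed without HFD MTX50 mouse 2 (0.0478). In HFD MTX50 the gene read 0.57, 0.10, 0.66, 1.03 and 0.48, overlapping HFD, with a difference of 0.13 ± 0.18 (adjusted p 0.649).

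Axin2, the scaffold of the beta-catenin destruction complex and the usual readout of Wnt activity, was not called on its brightest probe in any comparison. LFD mice read −1.01, −1.53, −1.51 and −1.65, and HFD mice −1.67, −1.93, −1.90 and −1.81. HFD mice lay below LFD mice, narrowly, since the nearest values were −1.65 and −1.67. The difference of −0.40 ± 0.18 had an adjusted p of 0.100 and an exact permutation p of 0.029. LFD MTX50 mice spread from −2.01 to −1.05 around the same mean as LFD (difference −0.00 ± 0.17, 95% interval −0.36 to 0.36), and HFD MTX50 mice lay between −1.88 and −1.61 (difference from HFD 0.09 ± 0.17, adjusted p 0.753).

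A second, dim Axin2 probe went another way. It read −5.33, −5.28, −5.70 and −5.84 in LFD and −5.07, −5.19, −4.25, −5.16 and −4.72 in LFD MTX50, with no overlap. Its difference of 0.66 ± 0.20 passed (adjusted p 0.0248), as did the difference between the treatment effects (−0.79 ± 0.29, adjusted p 0.048). The median of the 4134 genes at such levels was 0.42 in the first comparison and −0.59 in the second, and 26% of them were called higher in LFD MTX50. The part of signal level in the result of this probe was not tested.

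Lgr5, a receptor for R-spondins that marks hepatocytes lining the central vein, was lower in LFD MTX50. LFD mice read −1.03, −0.52, −1.32 and −0.45, and LFD MTX50 mice −1.66, −1.81, −2.37, −2.06 and −1.44. The groups did not overlap. The difference was −1.04 ± 0.34, 2.06-fold lower, with an adjusted p of 0.0327 and an exact permutation p of 0.0079, the smallest that 4 against 5 mice allow.

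In the HFD cohort no such difference was seen. HFD mice read −0.74, −1.28, −2.04 and −1.27 and HFD MTX50 mice −1.40, −2.41, −0.93, −0.52 and −0.64, so that the treated mice spread over and beyond the range of the untreated. The difference was 0.15 ± 0.34 (adjusted p 0.791). The lowest value in each of these groups came from slide 5. The treatment effects differed by 1.19 ± 0.48, with an adjusted p of 0.0734 (0.0114 without HFD MTX50 mouse 2, 0.042 without HFD mouse 1, range 0.0545 to 1 over 13 other settings), so that a difference between the diets in the response of Lgr5 was not called. In LFD MTX50 vs LFD the call of Lgr5 was lost in a fit with slides as random blocks (−0.98, adjusted p 0.172, range over 16 settings 0.0112 to 0.43) and without mouse 2 or 4 of LFD or mouse 2, 3 or 4 of LFD MTX50 (adjusted p up to 0.09).

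Znrf3, the partner of Rnf43 in clearing Frizzled receptors, is a dim gene on this array. It read −5.50, −5.37, −5.27 and −5.63 in LFD and −4.72, −4.94, −4.16, −5.03 and −5.25 in LFD MTX50, which lay above every LFD mouse, and mouse 3 stood highest. The difference was 0.62 ± 0.18 (adjusted p 0.0192, exact permutation p 0.016), and with slides as random blocks it was 0.56 and not called (adjusted p 0.182). HFD mice read −5.15, −5.16, −5.24 and −5.13, and HFD MTX50 mice −4.88, −5.52, −5.52, −5.13 and −5.22, a difference of −0.08 ± 0.18 (adjusted p 0.776). The HFD mice lay above every LFD mouse, narrowly, and their difference of 0.27 ± 0.19 was not called (adjusted p 0.277, exact permutation p 0.029).

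Znrf3 was the single gene of the 10 whose treatment effects differed between the diets by the adjusted p (−0.71 ± 0.25, adjusted p 0.0475), where 18.1% of all genes were called lower and 8.66% higher. At its level the median gene moved alike, by 0.42 in LFD MTX50 vs LFD and −0.59 in the difference between the effects. Quantile normalization reduced the Znrf3 difference in LFD MTX50 vs LFD to 0.24 (adjusted p 0.305, range over 16 settings 0.0151 to 0.305) and the difference between the effects to −0.19 (adjusted p 0.587, range over 13 settings 0.0412 to 1). Without LFD mouse 4 its adjusted p for LFD MTX50 was 0.0526, and the difference between the effects passed without LFD MTX50 mouse 4 or 5 or HFD MTX50 mouse 1 and was lost without any other single array (up to 0.0892). The part of signal level in the Znrf3 result was not tested.

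Tbx3, a T-box repressor of transcription, was not called in any comparison. It read 2.25, 1.49, 1.68 and 1.20 in LFD against 1.22, 1.02, 0.98 and 1.18 in HFD, which overlap by LFD mouse 4. The difference was −0.56 ± 0.26 (adjusted p 0.113, exact permutation p 0.057). The range was 0.83 to 1.99 in LFD MTX50 and 0.87 to 1.75 in HFD MTX50, with differences of −0.21 ± 0.25 from LFD (adjusted p 0.538) and 0.30 ± 0.25 from HFD (adjusted p 0.418).

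**Figure D2:**
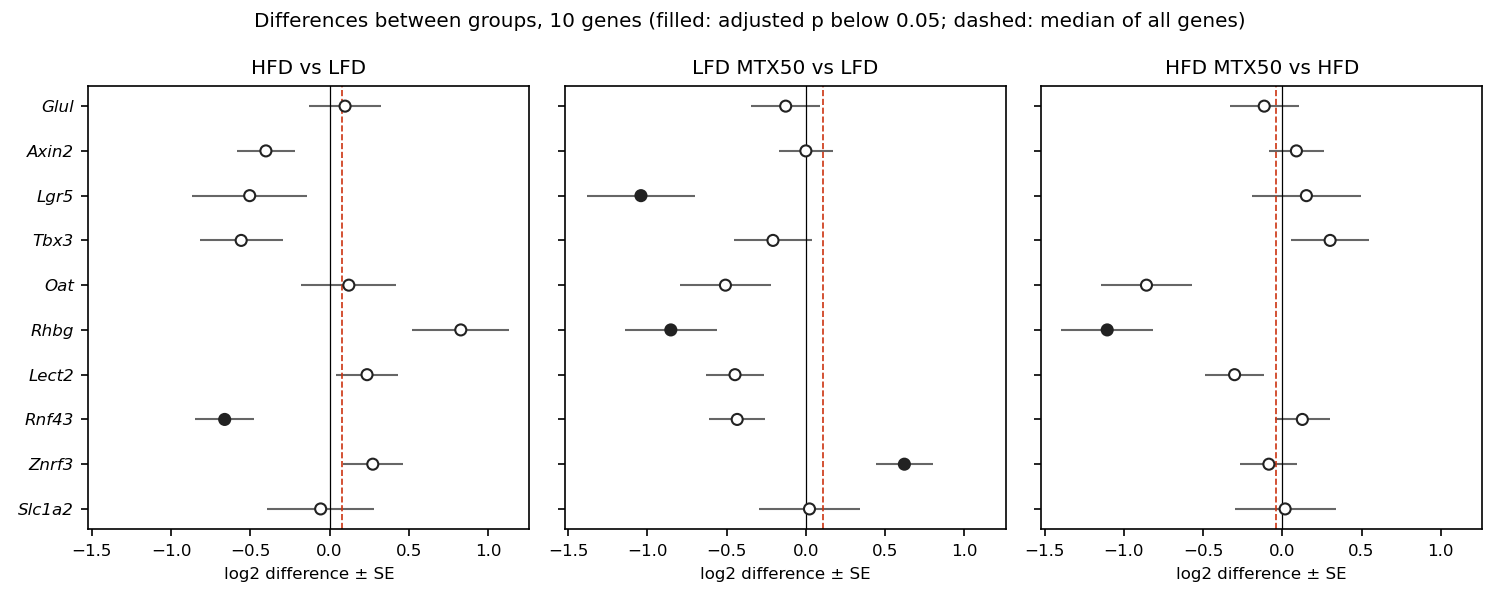
Log2 difference ± SE (horizontal axis) of each gene in the 3 comparisons, from limma. Filled points passed the adjusted p of 0.05 and the dashed line is the median of all genes; Rhbg passed in both methotrexate comparisons, at −0.85 and −1.11.

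In LFD MTX50 vs LFD, 3 of the 10 genes were called, Lgr5 and Rhbg lower and Znrf3 higher, where 10.5% of all genes were called lower and 17.6% higher. The median difference of the 10 was −0.32, against 0.10 over all genes. In HFD MTX50 vs HFD, 1 of the 10 was called, Rhbg, lower, where 6.13% of all genes were lower and 4.83% higher. There the median of the 10 was −0.03 and that of all genes −0.04. Both treatment comparisons thus shared Rhbg, and their control mice are different. With normexp background correction, whose fit failed on several arrays, 0 of the 10 genes were called in any comparison.

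Rhbg, a membrane protein of the Rh family that carries ammonia, was lower in treated mice on both diets. It read −2.49, −2.01, −1.88 and −2.02 in LFD and −3.06, −3.07, −2.66, −3.02 and −2.95 in LFD MTX50, with no overlap. The difference was −0.85 ± 0.29, 1.81-fold lower (adjusted p 0.0372, exact permutation p 0.0079). HFD mice read −1.84, −1.21, −1.43 and −0.61, above every LFD mouse, and HFD MTX50 mice −1.52, −2.78, −3.30, −2.09 and −2.19. Of the treated HFD mice, mouse 1 overlapped the untreated and the other 4 lay below them.

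In HFD MTX50 vs HFD the Rhbg difference was −1.11 ± 0.29, 2.15-fold lower (adjusted p 0.0268, exact permutation p 0.04). Within slide 5 it was −1.13 ± 0.44, of the same size but without a call (adjusted p 0.131, range over 17 other settings 0.0201 to 0.942). The call was kept in a fit with slides as random blocks (adjusted p 0.0425) and lost with the replicate number as a block (−1.13, adjusted p 0.0575), in a fit of HFD and HFD MTX50 alone (adjusted p 0.109) and without HFD mouse 2, 3 or 4 (adjusted p 0.0562, 0.0758 and 0.106). In LFD MTX50 vs LFD the slide as a random block left −0.85 without a call (adjusted p 0.211, range over 16 settings 0.00407 to 0.787). It was lost there as well without mouse 2, 3 or 4 of LFD or mouse 1, 2, 4 or 5 of LFD MTX50 (adjusted p 0.0541 to 0.0923).

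Between the diets the treatment effects on Rhbg differed by −0.25 ± 0.41 (95% interval −1.12 to 0.61, adjusted p 0.667). HFD vs LFD gave 0.83 ± 0.31, higher in HFD, which missed the threshold at an adjusted p of 0.0515 (exact permutation p 0.029). Over 16 other settings this p ran from 0.0305 to 0.43, with a difference of 0.69 to 0.83, and it passed without HFD mouse 1, HFD MTX50 mouse 1 or HFD MTX50 mouse 3 (0.0245, 0.0287 and 0.0278). HFD MTX50 mice averaged −2.38 ± 0.68 (SD, n = 5), and untreated LFD mice −2.10 ± 0.27 (SD, n = 4).

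Oat, the mitochondrial ornithine aminotransferase, had the next largest difference in HFD MTX50 vs HFD. HFD mice read 4.48, 3.88, 3.04 and 4.44 and HFD MTX50 mice 2.61, 2.85, 3.15, 3.73 and 3.19. HFD mouse 3 lay among the treated mice. The difference of −0.86 ± 0.28 missed the threshold (adjusted p 0.059, exact permutation p 0.063), and within slide 5 it was −1.01 (adjusted p 0.134). Quantile normalization (−1.02, adjusted p 0.0272) and leaving out HFD mouse 3 (−1.16, adjusted p 0.0398), HFD MTX50 mouse 4 (−1.01, adjusted p 0.0383) or LFD MTX50 mouse 2 (−0.86) brought it past the threshold. Over 17 settings the adjusted p ran from 0.0272 to 0.381.

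In the LFD cohort Oat read 3.68, 4.02, 3.84 and 3.83 in untreated and 3.48, 2.60, 3.64, 3.31 and 3.65 in treated mice. The groups did not overlap, by a small margin, and the difference of −0.51 ± 0.28 was not called (adjusted p 0.18, exact permutation p 0.032). By diet Oat differed by 0.12 ± 0.30 (adjusted p 0.778).

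Glul, glutamine synthetase, which joins ammonia to glutamate and is confined in liver to the cells nearest the central vein, was not called in any comparison. It read 4.46, 4.43, 4.58 and 4.76 in LFD, 4.22, 4.39, 4.42, 4.49 and 4.63 in LFD MTX50, and 4.52, 4.71, 4.27 and 5.12 in HFD. In HFD MTX50 it read 3.76, 4.49, 4.45, 4.92 and 5.09, a wider spread with mouse 1 lowest. All 4 groups overlapped. The 95% intervals of the log2 difference were −0.38 to 0.58 for HFD vs LFD, −0.58 to 0.33 for LFD MTX50 vs LFD and −0.57 to 0.34 for HFD MTX50 vs HFD, and a difference inside these bounds could not be told from 0.

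Slc1a2, the glutamate transporter of the same cells, was not called on its brightest probe. Its levels were 0.83 to 1.42 in LFD, 0.82 to 1.40 in LFD MTX50, 0.35 to 1.52 in HFD and −0.31 to 1.71 in HFD MTX50, where mouse 1 stood apart at −0.31 and the other 4 lay between 1.16 and 1.71. The differences were −0.06 ± 0.34, 0.02 ± 0.32 and 0.02 ± 0.32 in HFD vs LFD, LFD MTX50 vs LFD and HFD MTX50 vs HFD. HFD MTX50 mouse 1 was also the lowest of all mice for Glul.

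Both other Slc1a2 probes were dimmer. One of them read −3.63, −3.83, −3.93 and −3.63 in LFD and −3.24, −3.33, −3.39 and −3.16 in HFD, without overlap, and was called higher in HFD (0.48 ± 0.14, adjusted p 0.0234). The third probe was not called in any comparison and again had HFD MTX50 mouse 1 lowest, at −5.35. The 95% interval of the brightest probe, −0.77 to 0.65, holds the difference of the called probe, and a difference between probes was not tested. Genes as dim as the called probe had a median difference of 0.32 by diet, with quartiles of −0.02 and 0.54.

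Lect2, a protein that hepatocytes secrete into the blood, read 5.10, 5.26, 5.16 and 5.42 in LFD and 4.70, 4.72, 4.77, 5.03 and 4.72 in LFD MTX50. The treated mice lay below the untreated, and the difference of −0.45 ± 0.18 missed the threshold (adjusted p 0.0754, exact permutation p 0.016). It passed, for instance, in a fit of these groups alone (adjusted p 0.0119, range over 16 settings 0.0119 to 0.259) and without HFD MTX50 mouse 2 (0.0351), and with the replicate number as a block (0.0477). The range was 4.99 to 5.78 in HFD and 4.55 to 5.65 in HFD MTX50, a difference of −0.30 ± 0.18 (adjusted p 0.272), and HFD vs LFD gave 0.24 ± 0.19 (adjusted p 0.363). The permutation p-values of the 10 genes belong to 30 tests, run for each gene in each of the 3 comparisons, and are unadjusted.

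**Figure D3:**
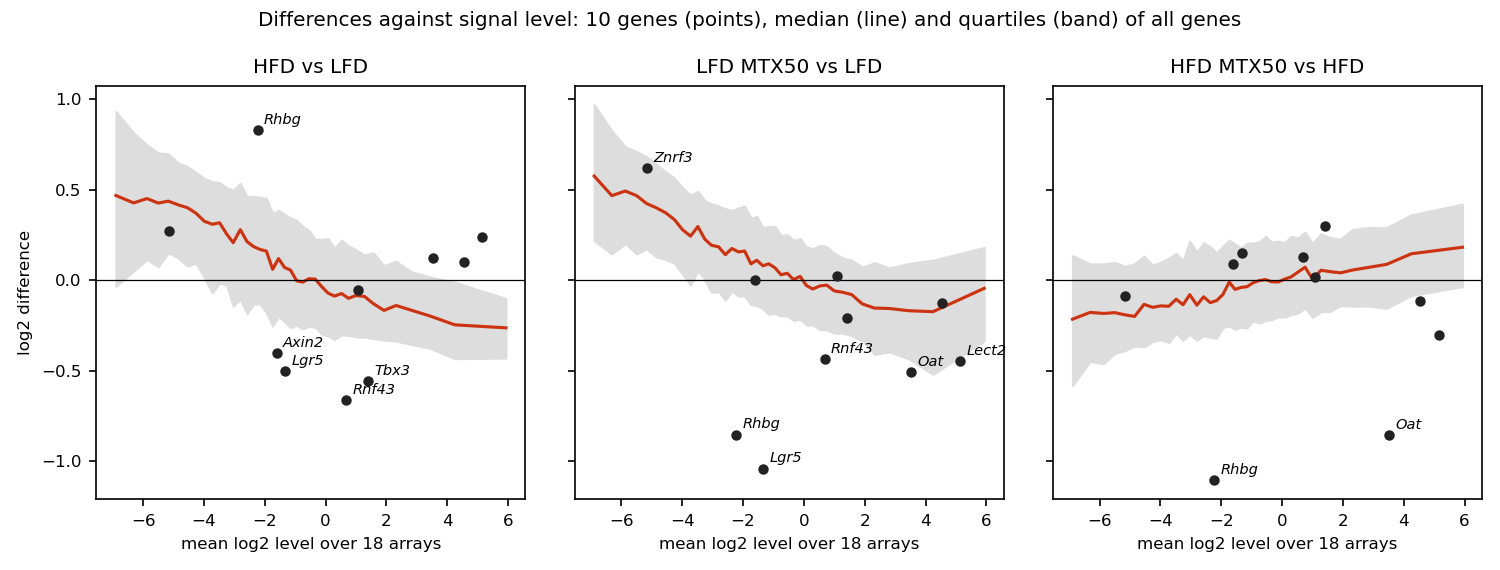
Log2 difference (vertical axis) against mean log2 level over 18 arrays (horizontal axis) in the 3 comparisons. Points are the 10 genes, named where the difference exceeds 0.4. The line is the median and the band the quartiles of all genes in 40 bins of level. In LFD MTX50 vs LFD Znrf3 lies within the quartiles of equally dim genes (0.17 to 0.68). Lgr5 and Rhbg lie below theirs, and so do Oat, Rnf43 and Lect2, which were not called.

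Markers of other cells differed between some groups. The summed level of 4 erythroid markers was 3.98 to 4.51 in LFD, 0.06 to 0.67 in LFD MTX50, 3.38 to 4.49 in HFD, and 0.46 to 5.77 in HFD MTX50. Alas2, the first enzyme of heme synthesis in red cell precursors, fell by 2.99 on the log2 scale in LFD MTX50 (SE 0.44, adjusted p 8.93e-04), and Hba-a1, a globin gene and the brightest of the 4, fell by 4.83 (SE 1.01, adjusted p 0.00473). The other markers of this list did not follow them, since Slc4a1 differed by 0.29 ± 0.29 (adjusted p 0.470) and Rhag was higher by 0.57 ± 0.16 (adjusted p 0.0185). The sum of 5 neutrophil markers ran from −0.79 to −0.08 in LFD, −0.84 to 2.69 in LFD MTX50, −0.93 to 0.56 in HFD and −0.48 to 5.76 in HFD MTX50, so that treated mice spread wider and overlapped the untreated. The sum of 6 cholangiocyte markers was 0.16 to 0.66 in LFD and 0.90 to 1.08 in LFD MTX50, and that of 6 lymphocyte markers 3.21 to 3.37 in LFD and 3.46 to 3.60 in HFD, neither with overlap. Sums for 11 sinusoidal and central vein endothelial markers, all above background on every array, ran from 4.22 to 4.70 in LFD and 4.47 to 5.21 in LFD MTX50. In HFD they ran from 4.56 to 4.80, and in HFD MTX50 from 4.44 to 4.88. Bright genes weigh most in such a sum, here Kdr and Clec4g (mean levels 3.61 and 2.73). Wnt9b, Thbd, Rspo3, Cdh13 and Wnt2 (−0.42 to −4.71) add little, so that central vein cells alone are not read. The sums overlapped between treated and untreated mice on each diet. Kupffer cell markers (6 genes, 3.02 to 4.84) and stellate cell markers (6 genes, 3.83 to 4.59) overlapped in these comparisons too. The part of other cells in the results of the 10 genes was not tested.

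The rest of the pathway was read from lists, none of which was tested as a set. Each list count below stands against the share of all genes called. That share was 10.4% lower and 18% higher in HFD vs LFD, and 10.5% lower and 17.6% higher in LFD MTX50 vs LFD. In HFD MTX50 vs HFD it was 6.13% lower and 4.83% higher. With the slide as a random block at most 1 gene of each list was called in a comparison with LFD, apart from 2 other pericentral genes lower in LFD MTX50. Of 9 Wnt ligands and R-spondins, 4 were called higher in HFD vs LFD and 0 lower, with a median difference of 0.48, where 18% of all genes were called higher and their median was 0.08. Wnt2, Rspo1 and Rspo2 are among the genes with a mean level below −4, of which 25.9% were called higher by diet. Genes near the level of Rspo4 had a median difference of 0.31. Wnt2, Wnt9b and Rspo3, also among the sinusoidal and central vein endothelial markers, were not called by diet. Means in LFD and HFD were −4.86 and −5.00 for Wnt2, −0.18 and −0.27 for Wnt9b, and −2.21 and −2.11 for Rspo3. Wnt11 went from −2.06 ± 0.10 (SD, n = 4) in LFD to −1.56 ± 0.21 (n = 4) in HFD (difference 0.49 ± 0.13, adjusted p 0.0115), and Rspo4 differed by 0.54 ± 0.19 (adjusted p 0.0431). Wnt4, the fourth in size, differed by 0.48 ± 0.12 (adjusted p 0.0101). Rspo2 was not well above background in any LFD mouse and was at least 1.32-fold higher in HFD (measured means −7.45 and −6.16, adjusted p 0.0155).

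In LFD MTX50 vs LFD, 3 of these ligand genes were higher and 1 lower, with a median of 0.49. The lower one was Wnt9b, a ligand made by central vein endothelium, at −0.18 ± 0.15 (n = 4) in LFD and −0.81 ± 0.13 (n = 5) in LFD MTX50 (difference −0.64 ± 0.20, adjusted p 0.0293). Wnt11 was higher by 0.66 ± 0.12 (adjusted p 0.00237), Rspo4 by 0.49 ± 0.18 (adjusted p 0.0499) and Rspo2, above background in 3 of 5 treated mice, at least 1.46-fold (adjusted p 0.00739). In HFD MTX50 vs HFD Wnt11 was the one call, lower, at −0.39 ± 0.12 (adjusted p 0.0435). Quantile normalization left 2 ligands higher by diet and 1 higher and 1 lower in LFD MTX50.

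Of 14 Wnt receptors, 1 was higher and 3 lower in HFD vs LFD, 2 higher and 1 lower in LFD MTX50 vs LFD, and 0 called in HFD MTX50 vs HFD. Fzd7, a Frizzled receptor, was lower, at −0.91 ± 0.23 in HFD (adjusted p 0.0119) and by −0.91 ± 0.22 in LFD MTX50 (adjusted p 0.00905), both against the same LFD mice. Lgr6, a receptor related to Lgr5, was higher in both (0.72 ± 0.22 and 0.66 ± 0.21, adjusted p 0.0239 and 0.0269), and the co-receptor Lrp6 was higher in LFD MTX50 (0.70 ± 0.13, adjusted p 0.00241). Fzd1 and Ryk were lower in HFD (−0.54 ± 0.14 and −0.51 ± 0.10, adjusted p 0.0127 and 0.00464). With quantile normalization both Lgr6 calls were lost, and Fzd1 was also called lower in LFD MTX50.

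Among 13 secreted or membrane inhibitors tested, 4 were higher and 1 lower in HFD vs LFD, 3 higher and 2 lower in LFD MTX50 vs LFD, and 0 higher and 1 lower in HFD MTX50 vs HFD. Notum, an enzyme that inactivates Wnt ligands and is itself a Wnt target, read 5.71 ± 0.15 in LFD (n = 4), 4.96 ± 0.19 in LFD MTX50 (n = 5), 5.08 ± 0.34 in HFD (n = 4) and 5.51 ± 0.40 in HFD MTX50 (n = 5). It was lower, at −0.62 ± 0.20 in HFD (adjusted p 0.0291) and by −0.74 ± 0.19 in LFD MTX50 (adjusted p 0.0109), and its treatment effects differed between the diets by 1.17 ± 0.27 (adjusted p 0.00818). Sfrp4, a secreted Wnt-binding protein, was higher by 0.63 ± 0.14 in HFD (adjusted p 0.00721) and 0.71 ± 0.13 in LFD MTX50 (adjusted p 0.00306). Sfrp1 was higher in HFD (0.66 ± 0.21, adjusted p 0.0268) and lower in HFD MTX50 than in HFD (−0.70 ± 0.20, adjusted p 0.0338). It is a dim gene (mean level −5.78), and genes below −4 had medians of 0.42 and −0.17 in these comparisons. The part of signal level in the Sfrp1 result was not tested. Dkk3 was higher in LFD MTX50 by 0.71 ± 0.24 (adjusted p 0.0363). Apcdd1 was called higher in both comparisons with LFD, but it was above background in 2 HFD, 2 LFD MTX50 and 0 LFD mice, and a bound of at least 1.21-fold could be given for LFD MTX50 alone. Quantile normalization left 1 inhibitor higher and 0 lower in HFD vs LFD and 1 higher and 2 lower in LFD MTX50 vs LFD.

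Of 13 genes of the destruction complex and its regulators, 2 were lower and 0 higher in HFD vs LFD (Tnks, −0.58 ± 0.21, adjusted p 0.0445; Btrc, −0.46 ± 0.16, adjusted p 0.0394). In LFD MTX50 vs LFD 2 were higher, Dvl3 by 0.50 ± 0.16 (adjusted p 0.0288) and Axin1 by 0.34 ± 0.10 (adjusted p 0.0218). Scaling to the median of probes above background turned these 2 calls into 0 higher and 1 lower. In HFD MTX50 vs HFD Btrc was higher by 0.56 ± 0.15 (adjusted p 0.0274).

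Beta-catenin and its nuclear partners gave 1 higher and 4 lower of 13 in HFD vs LFD. They gave 2 higher and 4 lower in LFD MTX50 vs LFD, and 3 higher and 0 lower in HFD MTX50 vs HFD. Over all genes 10.4%, 10.5% and 6.13% were called lower in these comparisons, and 18%, 17.6% and 4.83% higher. Tcf7l1, a TCF factor that mostly represses, read −2.01 ± 0.05 in LFD (n = 4), −2.95 ± 0.20 in LFD MTX50 (n = 5), −3.38 ± 0.25 in HFD (n = 4) and −2.66 ± 0.26 in HFD MTX50 (n = 5). Its differences were −1.37 ± 0.15 by diet (adjusted p 7.76e-04), −0.94 ± 0.14 in LFD MTX50 against LFD (adjusted p 9.91e-04) and 0.72 ± 0.14 in HFD MTX50 vs HFD (adjusted p 0.00965). Ctnnb1, beta-catenin itself, was lower, at −0.37 ± 0.09 in HFD (adjusted p 0.0111) and −0.24 ± 0.09 in LFD MTX50 (adjusted p 0.0497). Pygo2 and Hnf4a, the latter a master regulator of hepatocyte genes, were lower in HFD (−0.62 ± 0.13 and −0.55 ± 0.16) and higher in HFD MTX50 than in HFD (0.49 ± 0.12 and 0.51 ± 0.15). With quantile normalization both Hnf4a calls were lost and Hnf4a was called higher in LFD MTX50 vs LFD instead, and the Ctnnb1 call in LFD MTX50 vs LFD was lost. In LFD MTX50, Tle3 was lower (−0.74 ± 0.17) and Lef1 and Bcl9 were higher (0.74 ± 0.14 and 0.55 ± 0.14). Lef1 (mean level −4.25) is among the genes below −4, whose median difference there was 0.42.

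Among 13 other Wnt target genes, 0 were higher and 3 lower in HFD vs LFD. In LFD MTX50 vs LFD 2 were higher and 4 lower, and in HFD MTX50 vs HFD 2 were higher and 0 lower. Notum, Tcf7 and Lef1 are also on the lists above, so that any call of theirs is counted on both lists. Tnfrsf19, a receptor of the TNF family, fell by 1.68 on the log2 scale in LFD MTX50 (SE 0.37, adjusted p 0.00549), from 1.67 ± 0.19 (n = 4) to −0.01 ± 0.83 (n = 5). Sp5, a transcription factor switched on by Wnt, was lower there, at −0.76 ± 0.24 (adjusted p 0.029). Nkd2, a Dishevelled-binding inhibitor, was higher on both diets under methotrexate, by 0.79 ± 0.22 (adjusted p 0.017) and 1.03 ± 0.22 (adjusted p 0.0138). Myc was higher in HFD MTX50 vs HFD by 1.48 ± 0.43 (adjusted p 0.037), and Sox9 and Prox1 were lower in HFD vs LFD (−0.81 ± 0.21 and −0.57 ± 0.20).

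Of 19 other pericentral hepatocyte genes, 0 were higher and 2 lower in HFD vs LFD, 0 higher and 3 lower in LFD MTX50 vs LFD, and 1 higher and 2 lower in HFD MTX50 vs HFD. Cldn2, a tight junction protein, was lower under methotrexate on both diets, like Rhbg (−0.68 ± 0.15, adjusted p 0.00626, and −0.59 ± 0.15, adjusted p 0.0258). Aldh1a1, a retinal dehydrogenase, fell from 5.93 ± 0.07 (n = 4) in LFD to 4.54 ± 0.45 (n = 5) in LFD MTX50 (−1.40 ± 0.19, adjusted p 6.6e-04), and Cyp1a2, a cytochrome P450 of drug metabolism, from 1.06 ± 0.16 to −0.66 ± 0.73 (−1.73 ± 0.34, adjusted p 0.0036). Gsta3, a glutathione transferase, was lower in HFD MTX50 than in HFD (−0.51 ± 0.16, adjusted p 0.0469), and Cyp2c29 was lower in HFD than in LFD (−0.60 ± 0.22, adjusted p 0.0473). Avpr1a, the vasopressin receptor of pericentral cells, was lower in HFD by −2.08 ± 0.35 (adjusted p 0.00289) and higher in HFD MTX50 than in HFD by 1.82 ± 0.33 (adjusted p 0.00788). Quantile normalization called 5 of these genes lower in HFD MTX50 vs HFD in place of 2.

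**Figure D4:**
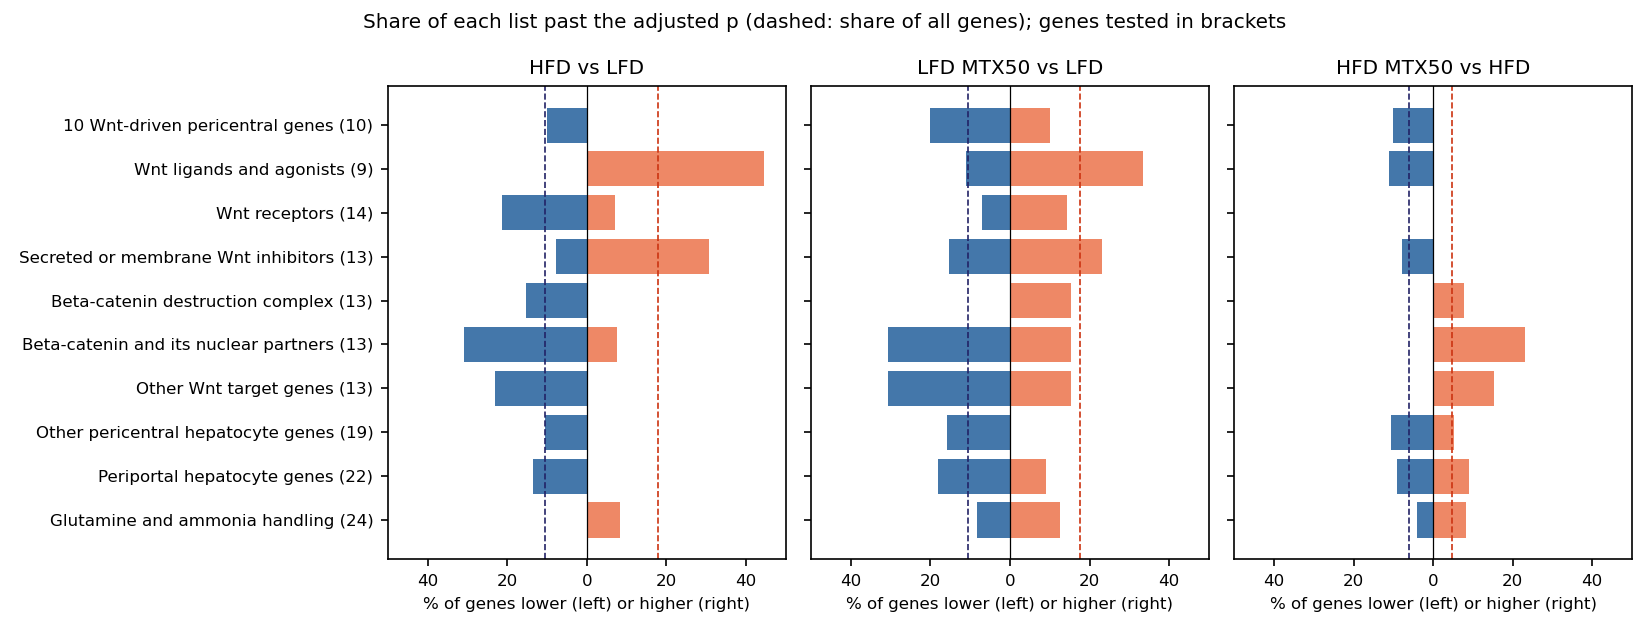
Share of the tested genes of each list called lower (left, %) or higher (right, %) in the 3 comparisons, with the number tested in brackets. Dashed lines give the share of all genes called; the 10 Wnt-driven pericentral genes (top bars) had 1 lower by diet, 2 lower and 1 higher in LFD MTX50, and 1 lower in HFD MTX50 vs HFD.

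Periportal hepatocyte genes served as the other end of the lobule. Of 22, 0 were higher and 3 lower in HFD vs LFD, 2 higher and 4 lower in LFD MTX50 vs LFD, and 2 higher and 2 lower in HFD MTX50 vs HFD. G6pc, the last enzyme of gluconeogenesis, was lower under methotrexate on both diets (−1.21 ± 0.34, adjusted p 0.0176, and −1.15 ± 0.34, adjusted p 0.0412), as was Etnppl (−0.88 ± 0.22 and −1.15 ± 0.22, adjusted p 0.0105 and 0.00903). Pck1, a gluconeogenic enzyme as well, was higher in LFD MTX50 (1.31 ± 0.28, adjusted p 0.00528). Ctsc, cathepsin C, was lower in HFD (−0.46 ± 0.16, adjusted p 0.0397) and higher in HFD MTX50 than in HFD (0.70 ± 0.15, adjusted p 0.0137). In HFD, Cdh1 and Cps1, which starts the urea cycle, were lower (−1.68 ± 0.34 and −1.24 ± 0.25, adjusted p 0.00507 and 0.00499). Of all genes 10.4%, 10.5% and 6.13% were called lower in these comparisons, and 18%, 17.6% and 4.83% higher. With lists of this size, the counts of lower genes lay within a few genes of these shares for both zones. In both comparisons with LFD, the counts of higher genes lay below the share of all genes for both zones. Median scaling called 7 periportal genes lower in HFD vs LFD, and quantile normalization 5 higher in LFD MTX50 vs LFD.

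Of 24 genes of glutamine, glutamate, ornithine and ammonia handling, 2 were higher and 0 lower in HFD vs LFD. In LFD MTX50 vs LFD 3 were higher and 2 lower, and in HFD MTX50 vs HFD 2 were higher and 1 lower. Gls2 is on this list and on the periportal list. Rhcg, the closest relative of Rhbg in this list, was lower in LFD MTX50 by −1.18 ± 0.32 (adjusted p 0.015), and its treatment effects differed between the diets by 1.46 ± 0.45 (adjusted p 0.0268). Rhag, the Rh glycoprotein of red cells and a dim gene here (means −5.98 to −5.18), was higher in both comparisons with LFD (0.79 ± 0.17 and 0.57 ± 0.16), where dim genes as a class were higher. Slc1a1, a glutamate transporter and dim as well (means −5.03 to −4.34), was higher in both comparisons with LFD (0.68 ± 0.15 and 0.42 ± 0.14) and lower in HFD MTX50 than in HFD (−0.50 ± 0.14, adjusted p 0.0324). Aldh4a1, an enzyme of proline breakdown, was lower in LFD MTX50 (−0.66 ± 0.18, adjusted p 0.0158). With quantile normalization the Rhag calls and the Slc1a1 call in LFD MTX50 vs LFD were lost. Slc38a2, a glutamine transporter, was higher under methotrexate on both diets, by 0.94 ± 0.18 (adjusted p 0.00333) and 0.75 ± 0.18 (adjusted p 0.0209).

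Over the 18 arrays the genes whose mean-centred levels lay nearest those of Glul were Ldhd, Nudt12, Rapsn, Slc35e1 and Cstf2t, at root mean square differences of 0.21 to 0.22 (log2), where Glul itself had an SD of 0.32 over the arrays. Ldhd is also on the list of pericentral genes. For Axin2 (SD 0.30) they were Rtf1, Mzt1, Rnf138, Arl5a and Pip5k1a, at 0.19. Each gene was set against 19397 genes with a value on every array, and none of the other members of the 10 was among these.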

How the data were processed

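Liver RNA of 18 mice was hybridised to one-colour Agilent 4×44K arrays, and the authors deposited the scanner output of each array, made with Feature Extraction 10.7.3.1 per the labels. The intensity used is the processed signal, which the authors' software had background-subtracted. The deposited series table holds background-subtracted intensities and served as an alternative, after 20651 entries below 1 were raised to 1. The study itself used GeneSpring, with a 2-fold limit.

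From the 44397 spots per array, 43020 non-control spots were used, and the 124 to 294 spots per array flagged as outliers were left out. Log2 intensity minus the array's 75th percentile was averaged over spots of a probe, and 35739 of 39429 probes were kept, those well above background on at least 4 arrays. Of these, 347 lacked a value on some array. Depth is not defined for arrays, and their number limits the precision; 84.2% to 90.8% of spots lay well above background and 0 were saturated. Groups were taken from the labels, which name 1 mouse per array. A model of 4 groups was fitted with limma 3.58.1 in R 4.3.3 and Benjamini-Hochberg adjusted over all kept probes, after a test on simulated data. A gene was read on its brightest kept probe. An adjusted p below 0.05 was the call, with no fold limit. Exact two-sided permutation tests over mice were run for single genes.

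The 10 genes and all lists were chosen with earlier results of these data known. In each list and comparison the 3 called genes of largest size were to be named; a few further called genes were named after their values were seen. Other called genes are given only in the counts, and one of them, which the rule would name, is not reported here. Alternatives were other background corrections, scalings, filters, fits, slide and replicate blocks, call rules including the methods' t-test, and leaving out each array. Mean signals were not used here, so normexp was run on median signals.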

Additional observations from a re-analysis of the deposited data

Results flagged for a closer look

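Of 40 tests for a single mouse far from the rest of its group, over 10 genes and 4 groups, 2 found one, and chance gives about 1 in 20. Lect2 in LFD MTX50 mouse 4 read 5.03, above the other 4 mice at 4.70 to 4.77. Slc1a2 in HFD MTX50 mouse 1 read −0.31, below the other 4 at 1.16 to 1.71. The treatment effects on Znrf3 differed between the diets by −0.71 (adjusted p 0.0475 in limma), with the dependence on signal level and scaling given above.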

How the results depend on the processing

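Beside the values reported, 1340 alternative values were computed for 40 results of single genes, from 17 other settings and from leaving out each of 18 arrays. In other settings 16 calls were gained and 32 lost, and without an array 12 were gained and 34 lost. The sign differed in 75 values where neither was called. Normexp turned Rhbg to 0.16 in LFD MTX50 vs LFD and 0.052 in HFD MTX50 vs HFD. Its fit failed on 9 arrays, where the 5th percentile of corrected signal was 184 to 2415 units against 70.3 to 92.4 on the others, so subtraction of the local background plus 50 was added after seeing the data. For other changes the cause was not tested.

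In HFD vs LFD the number of the 10 genes called went from 1 to 0 with normexp, the slide as a random block, or a 2-fold limit (also for the methods' t-test), to 2 with an intensity trend, the methods' t-test adjusted or only probes above background on all arrays, and to 3 in a fit of these groups alone (0 to 2 without 1 array). In LFD MTX50 vs LFD it went from 3 to 0 with normexp or the slide as a random block, to 1 with a 2-fold limit in either test, and to 5 with these groups alone (0 without LFD mouse 4, up to 5 without HFD MTX50 mouse 2). In HFD MTX50 vs HFD it went from 1 to 0 with normexp, these groups alone, the slide as a fixed block, the replicate block or the methods' t-test, and to 2 with local subtraction, quantile normalization or only probes above background on all arrays (0 to 2 without 1 array). The difference between the effects went from 1 to 0 with normexp, local subtraction, quantile normalization, median scaling, no filter, an intensity trend, the slide as a random block, the replicate block, a 2-fold limit or the mean of a gene's probes (0 to 2 without 1 array).

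Deviations of same-numbered mice correlated at −0.31 to 0.26. Differently numbered mice were not compared, so whether replicate numbers pair the samples cannot be told from these values. With the replicate block, 1013 genes were called in HFD MTX50 vs HFD in place of 2148.

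Over all genes, 5554 were called in HFD vs LFD, against 560 with a 2-fold limit, 512 by the methods' t-test with a 2-fold limit, 2 with normexp and 380 when the slide was a random block (2244 to 6280 without 1 array). For LFD MTX50 vs LFD 5501 became 930, 752, 339 and 340, and 3667 with quantile normalization (3185 to 6212). For HFD MTX50 vs HFD 2148 became 191, 133 and 0 with the first 3 of these, 0 with these groups alone or the methods' t-test adjusted, and 1429 with the slide as a fixed block (282 to 3034). For the difference between the effects 5241 became 1556 with a 2-fold limit, 0 with normexp, 3331 with quantile normalization and 1248 when the slide was a random block (3006 to 6197). Median scaling moved the share of called genes that were higher to 44.8%, 44.7%, 53.2% and 51.0%, from 63.4%, 62.7%, 44.0% and 32.4%, and quantile normalization moved the last to 45.3%.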
